A study of Mus musculus with 8 samples.

Results

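Growing axons and migrating neurons in the embryonic cerebral cortex are steered by a small set of ligand and receptor families, and 39 genes of 3 such systems are described here. They are the Eph receptors with their ephrin ligands, the Slit ligands with their Robo receptors, and the netrins with their receptors and the netrin antagonist Draxin. The genes were taken by symbol, through their Entrez numbers, from a count table of 27179 genes, and all 39 were found there. The rule itself uses no measured value, but the genes were chosen with earlier results of these data known.

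The table comes from a study of Taf8, which encodes a subunit of TFIID, the general factor that recognises core promoters. Polyadenylated RNA was sequenced from the cerebral cortex of 4 Taf8-deleted mouse embryos, which carried a null and a lox allele (Taf8 -/lox), and of 4 wild-type embryos (Taf8 +/+). Each library was made from its own embryo. For the Cre driver, the embryonic age and the strain, nothing is stated in the sources used here, so the cells in which the lox allele was recombined are not known from them. The animal numbers of the labels have no first part in common between the groups, while wild-type replicates 1 to 3 share theirs. A litter or batch marked by it cannot be told apart from the genotype, and littermates could make the p-values too small.

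Eph receptors are receptor tyrosine kinases that bind membrane-anchored ephrins on neighbouring cells, mostly for repulsion, and signals run into both cells. Slits are secreted proteins that repel axons through Robo receptors, for example at the telencephalic midline, where they help to channel callosal and corticofugal axons. Netrins attract axons through Dcc and repel them when Unc5 receptors take part, and Draxin is a secreted protein that binds netrin and Dcc and is needed in mice for forebrain commissures.

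The libraries held 26312505 to 65523487 counts in genes, so 3 counts correspond to 0.0458 to 0.114 CPM (read counts scaled to library size), a limit that covers counting error only. Taf8 itself had 0.791, 0.746, 0.486 and 0.547 CPM in Taf8-deleted libraries 1 to 4, against 38.5, 35, 32 and 33.6 CPM in the wild-type libraries (log2 fold change -5.75, SE 0.12, adjusted p = 1.45e-09 by edgeR's quasi-likelihood test). The dorsal telencephalic gene Emx1, a marker of the labelled tissue, had 55.1 to 62.6 CPM in Taf8-deleted cortex and 64.4 to 76.3 CPM in wild-type cortex. Genes of the ventral telencephalon were present as well, with Dlx1 at 260 to 269 CPM in Taf8-deleted and 282 to 326 CPM in wild-type libraries, and Nkx2-1 at 62.1 to 68 CPM in Taf8-deleted and 65.8 to 82 CPM in wild-type libraries. Summed over 10 cortical identity markers, the level was 2257 to 2586 CPM in Taf8-deleted and 3167 to 3496 CPM in wild-type libraries, and 8 of the 10 were lower. Of 5 floor plate and ventral midline markers, Foxa1, Foxa2 and Nkx6-1 were at most 0.423 CPM in any library, while Shh had 5.96 to 8.38 CPM in Taf8-deleted and 5.02 to 5.7 CPM in wild-type libraries, and Spon1 had 12.6 to 15.7 CPM in Taf8-deleted and 14.6 to 19.3 CPM in wild-type libraries. In such bulk RNA, fewer cells of a type and less RNA per cell cannot be told apart.

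Guidance genes were lower more often than higher in Taf8-deleted cortex. Of the 39 genes, 38 passed the filter on low counts and were tested, and 18 were lower, 8 were higher and 12 did not pass the threshold (Benjamini-Hochberg adjusted p under 0.05 over 15649 genes, edgeR's quasi-likelihood test). The lower genes were 47.4% of those tested, beside a background of 29.6% of all genes, and the higher ones were 21.1%, beside 29.5%. The median log2 fold change (Taf8-deleted over wild-type) was -0.22 over the guidance genes and 0.01 over all genes, and the median absolute value was 0.31 and 0.27. The levels of the groups did not overlap in 23 of the 38, which is 60.5% beside 53.6% of all genes, with 17 genes below and 6 above the wild-type libraries. Among the changes of at least 1.4-fold, Draxin, Efna4, Epha3, Robo2, Robo1, Epha6, Efna2 and Efna3 fell, and Slit2, Ephb2 and Efnb1 rose.

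**Figure D1:**
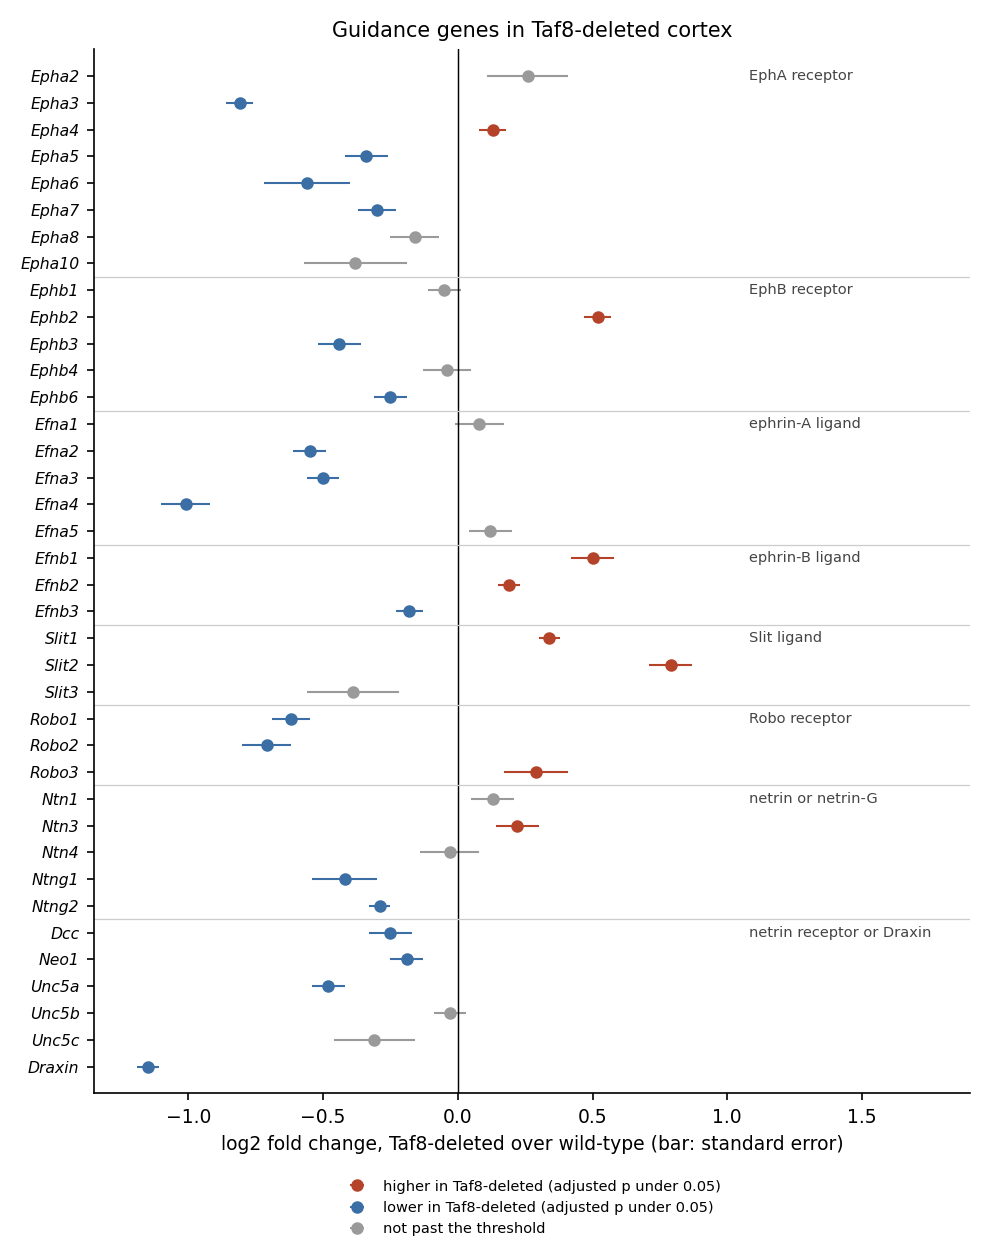
Log2 fold change (Taf8-deleted over wild-type) of the 38 tested guidance genes by family, with the standard error as a bar and the colour giving the outcome of the test. Draxin at -1.15 and Efna4 at -1.01 lie farthest to the left, Slit2 at 0.79 farthest to the right, and the ephrin-B and Slit families hold 4 of the 8 genes called higher.

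Ligands and receptors of a system did not always go the same way. Of the Slits 2 of 3 rose while 2 of the 3 Robos fell, and of the ephrin-B ligands 2 of 3 rose while 3 of 5 ephrin-A ligands fell and none rose. The level of a family was summed per kilobase of gene length (RPKM). The Slits together had 46.1, 46.2, 43.9 and 41 RPKM in Taf8-deleted libraries, against 32.3, 33.7, 32.2 and 32.6 RPKM in wild-type libraries. The Robos had 43.7, 43.6, 43.9 and 43.9 RPKM in Taf8-deleted libraries, against 64.6, 66.5, 71.7 and 62.7 RPKM in wild-type libraries. The groups overlap in neither sum. In Taf8-deleted cortex the mean sums of Slits and Robos were close, at 44.3 and 43.8 RPKM, while in wild-type cortex they were 32.7 and 66.4 RPKM.

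The ephrin-A ligands summed to 44.8 ± 2.78 RPKM in Taf8-deleted cortex and 64.7 ± 1.62 RPKM in wild-type cortex (SD, n = 4 each, here and below). The ephrin-B ligands, the family with the highest sum, had 276 ± 8.18 RPKM in Taf8-deleted cortex and 236 ± 7.63 RPKM in wild-type cortex. Summed EphA receptors were at 131 ± 6.69 RPKM in Taf8-deleted cortex and 154 ± 4.52 RPKM in wild-type cortex, and EphB receptors at 100 ± 5.19 RPKM in Taf8-deleted cortex and 88.6 ± 3.36 RPKM in wild-type cortex. In these sums the Taf8-deleted libraries all lay below the wild-type ones for ephrin-A and EphA and above them for ephrin-B and EphB. The sums follow the abundant members, and not every member went with its sum: Epha4 was called higher, while Ephb3, Ephb6 and Efnb3 fell. Netrins and netrin-Gs overlapped between the groups, at 50.3 ± 0.887 RPKM in Taf8-deleted cortex and 54.2 ± 3.06 RPKM in wild-type cortex. Netrin receptors with Draxin had 112 ± 2.75 RPKM in Taf8-deleted cortex and 157 ± 8.66 RPKM in wild-type cortex, with no overlap.

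**Figure D2:**
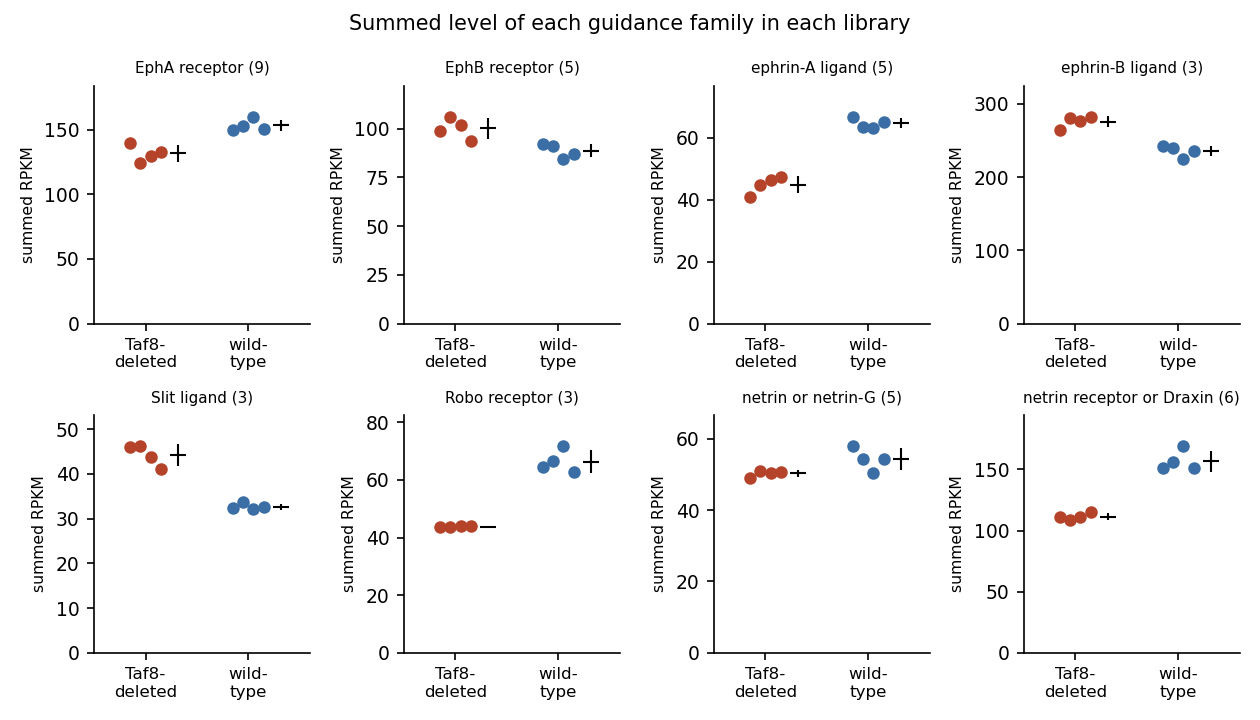
Summed RPKM of each guidance family in each library, with the number of its genes in brackets and the mean and SD beside the points. The 4 Taf8-deleted libraries lie above all wild-type libraries for EphB receptors, ephrin-B ligands and Slits, and below them for EphA receptors, ephrin-A ligands, Robos, and netrin receptors with Draxin.

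Draxin, the gene with the largest fall, had 124, 125, 133 and 125 CPM in Taf8-deleted libraries, against 276, 281, 287 and 284 CPM in wild-type libraries. The groups were far apart and the spread within each was small. Its log2 fold change was -1.15 (SE 0.04, adjusted p = 1.61e-08 by edgeR), a 2.22-fold lower level. The gene lies at chr4:148098437-148131139 and overlaps Mad2l2 at the end that holds its start site. The sources used here do not state the strand setting of the counting, so reads of the overlap cannot be assigned with certainty, and Mad2l2 itself had 41.4 to 48 CPM in Taf8-deleted and 40 to 44.7 CPM in wild-type libraries.

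Promoters of some of the genes that changed by at least 1.4-fold are shown because TFIID binds there. Slit3, which did not pass the threshold, is shown beside its relative Slit2. The windows below are from RefSeq (GRCm38.p6, the same sequence as the mm10 build of the counts) and run from 60 bases before an annotated start through the first 30 transcribed bases, on the coding strand. Capitals mark CG dinucleotides and, in Slit2, the letters TATAAA.
Slit2: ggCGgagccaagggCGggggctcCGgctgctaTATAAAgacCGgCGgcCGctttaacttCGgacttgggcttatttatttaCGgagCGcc
Slit3: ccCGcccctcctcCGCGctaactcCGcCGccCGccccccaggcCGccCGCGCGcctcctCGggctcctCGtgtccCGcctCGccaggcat
Ephb2: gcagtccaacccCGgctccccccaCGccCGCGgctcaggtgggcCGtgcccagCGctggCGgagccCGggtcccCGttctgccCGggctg
Efnb1: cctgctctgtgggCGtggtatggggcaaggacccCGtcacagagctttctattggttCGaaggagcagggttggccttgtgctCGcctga
Draxin: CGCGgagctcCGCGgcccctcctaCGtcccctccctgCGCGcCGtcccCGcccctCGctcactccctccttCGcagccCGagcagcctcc
Efna4: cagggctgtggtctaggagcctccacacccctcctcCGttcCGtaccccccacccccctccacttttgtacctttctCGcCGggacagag
Epha3: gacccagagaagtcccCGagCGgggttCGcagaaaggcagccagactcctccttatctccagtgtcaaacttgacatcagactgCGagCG

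These windows lie at chr5:47983095-47983184 (plus strand, Slit2), chr11:35121396-35121485 (plus, Slit3), chr4:136835983-136836072 (minus, Ephb2), chrX:99136001-99136090 (plus, Efnb1), chr4:148130669-148130758 (minus, Draxin), chr3:89337999-89338088 (minus, Efna4) and chr16:63864146-63864235 (minus, Epha3). The motif TATAAA stood from 40 to 20 bases before a start, on the coding strand, in 1 of the 35 guidance genes that have a RefSeq window. That gene is Slit2, the guidance gene with the largest rise. The share was 2.86%, beside 162 of 11840 tested genes with a window (1.37%). Of those 162 genes 46.3% were higher and 19.8% lower in Taf8-deleted cortex, with a median log2 fold change of 0.20, while of the genes without the motif there 29.6% were higher and 30.2% lower, with a median of 0.01. Searched on both strands of the whole 300 bases, the motif was in Slit2 and Efnb2, or 5.71% of the guidance genes, beside 8.99% of all. CG dinucleotides per 300 bases had a median of 24 in guidance genes and 21.5 in all genes. Among the printed genes they ran from 11 in Efna4 and 14 in Efnb1 to 39 in Draxin and 41 in Slit3, so a fallen gene and a risen one are found at the low end alike. A motif match is a description of the letters and shows no binding. The part of the motif in the rise of Slit2 was not tested, and genes with and without it were not matched for span.

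Slit2 rose. It had 121, 120, 117 and 96.2 CPM in Taf8-deleted libraries, against 62.9, 72, 66 and 62.2 CPM in wild-type libraries, with no overlap. The log2 fold change was 0.79 (SE 0.08, adjusted p = 1.06e-05 by edgeR), or 1.73-fold. Slit1, the Slit with the most RNA per length, had 153, 156, 148 and 146 CPM in Taf8-deleted libraries, against 120, 122, 115 and 121 CPM in wild-type libraries, and rose by 0.34 on the log2 scale (SE 0.04). Slit3 had 8.51, 6.49, 5.64 and 5.34 CPM in Taf8-deleted libraries, against 7.33, 7.12, 10.2 and 9.22 CPM in wild-type libraries. The groups of Slit3 overlap, its log2 fold change was -0.39 (SE 0.17), and it missed the threshold (adjusted p = 0.0638 by edgeR), although DESeq2 (adjusted p = 0.038), limma voom (0.0442) and the fit without Taf8-deleted replicate 1 (0.0102) passed it. Slit1 made up 65% ± 2.06 of the summed Slit RPKM in Taf8-deleted cortex and 69.7% ± 1.39 in wild-type cortex.

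Robo1 and Robo2, the main Slit receptors of the forebrain, fell together. Robo1 had 155, 180, 180 and 153 CPM in Taf8-deleted libraries, against 249, 274, 269 and 234 CPM in wild-type libraries (log2 fold change -0.62, SE 0.07, adjusted p = 3.18e-05 by edgeR). Robo2 had 157, 128, 134 and 159 CPM in Taf8-deleted libraries, against 228, 217, 272 and 231 CPM in wild-type libraries (log2 fold change -0.71, SE 0.09, adjusted p = 5.57e-05 by edgeR). Both genes were below every wild-type library, yet not in step within the Taf8-deleted group: Robo1 was highest in replicates 2 and 3, where Robo2 was lowest. They are neighbours on chromosome 16, at chr16:72027518-73047491 and chr16:73891976-75447443, and are among the longest of the guidance genes. Robo3, which in mammals does not bind Slits with high affinity and serves commissural axons, had 17.3, 18.7, 16.2 and 18.1 CPM in Taf8-deleted libraries, against 16.1, 16.2, 11 and 14.6 CPM in wild-type libraries. It passed the threshold only just, as higher (log2 fold change 0.29, adjusted p = 0.0499 by edgeR), its groups overlap, and the call was lost when any of 6 libraries was left out, for example wild-type replicate 3 (0.17, adjusted p = 0.0559).

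**Figure D3:**
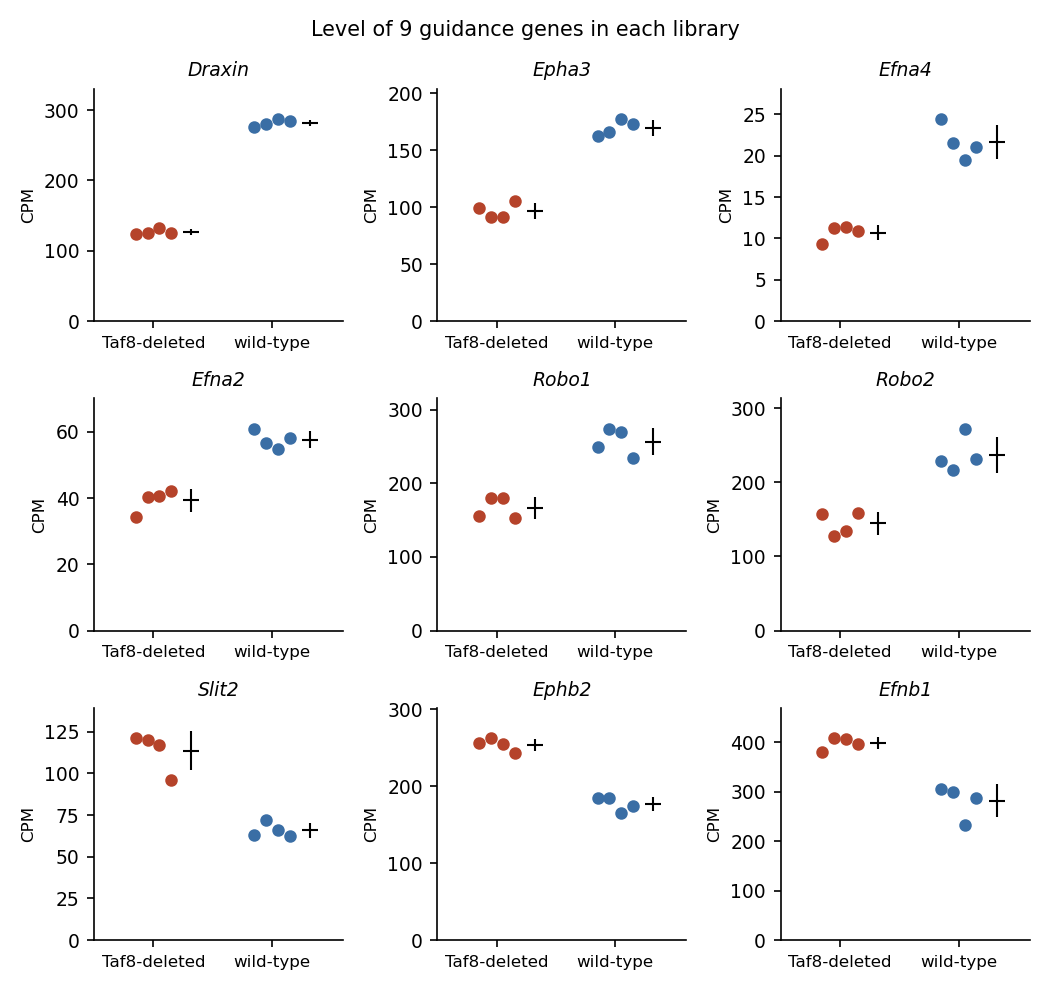
CPM of 9 guidance genes in each library, with the mean and SD of each group beside its points, on axes that start at 0. Draxin, Epha3, Efna4, Efna2, Robo1 and Robo2 lie lower and Slit2, Ephb2 and Efnb1 higher in each Taf8-deleted library than in any wild-type library, and the lowest Taf8-deleted point of Slit2 (96.2 CPM) stands apart from its group.

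Among the ephrin-A ligands, which are held to the membrane by a lipid anchor, 3 fell and 2 did not pass the threshold. Efna4 had 9.36, 11.2, 11.4 and 10.9 CPM in Taf8-deleted libraries, against 24.4, 21.5, 19.5 and 21.1 CPM in wild-type libraries (log2 fold change -1.01, SE 0.09, adjusted p = 4.07e-06 by edgeR). Efna2, the ephrin-A with the largest share of the summed RPKM (41.2% in Taf8-deleted and 41.8% in wild-type cortex), had 34.2, 40.4, 40.7 and 42.1 CPM in Taf8-deleted libraries, against 60.9, 56.5, 54.9 and 58 CPM in wild-type libraries (log2 fold change -0.55, SE 0.06, adjusted p = 4.1e-05). Efna3 had 13.7, 14.3, 15.6 and 15.3 CPM in Taf8-deleted libraries, against 20, 19.8, 22.3 and 21.3 CPM in wild-type libraries (log2 fold change -0.50, SE 0.06, adjusted p = 6.93e-05). No Taf8-deleted library reached a wild-type one in any of the 3 genes. Efna4, Efna3 and Efna1 are neighbours on chromosome 3, at chr3:89333393-89338028, chr3:89313899-89322939 and chr3:89271730-89280951, and Efna1 did not share the fall, with 5.22 to 5.87 CPM in Taf8-deleted and 4.86 to 5.96 CPM in wild-type libraries (log2 fold change 0.08). Efna5, a repellent of the visual and cortical maps, overlapped at 23.4, 19.5, 21.2 and 23.9 CPM in Taf8-deleted libraries, against 18.4, 21.7, 21.4 and 19.3 CPM in wild-type libraries (log2 fold change 0.12, adjusted p = 0.20).

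The ephrin-B ligands span the membrane and can signal into their own cell, and as a family they had the highest summed RPKM. Efnb1, known from cortical progenitors, had 381, 408, 407 and 397 CPM in Taf8-deleted libraries, against 306, 300, 233 and 287 CPM in wild-type libraries (log2 fold change 0.50, SE 0.08, adjusted p = 0.000235 by edgeR). Efnb2, known from progenitors and arterial vessels, had 416, 420, 426 and 442 CPM in Taf8-deleted libraries, against 382, 359, 384 and 372 CPM in wild-type libraries (log2 fold change 0.19, SE 0.04, adjusted p = 0.00142). Efnb3, known from postmitotic neurons and the midline, had 163, 185, 173 and 187 CPM in Taf8-deleted libraries, against 193, 207, 207 and 198 CPM in wild-type libraries, and fell by 0.18 on the log2 scale (SE 0.05, adjusted p = 0.00998). In each of the 3 genes the groups do not overlap. Of 10 radial glia and intermediate progenitor markers 5 were higher, Nes and Vim among them (log2 fold change 0.93 and 0.60), 3 were lower (Fabp7 -0.51, Slc1a3 -0.32 and Eomes -0.24) and 2 did not pass. Their sum was 3977 to 4237 CPM in Taf8-deleted and 3105 to 3495 CPM in wild-type libraries. The sum rose mainly through Nes (mean 979 CPM in Taf8-deleted and 515 CPM in wild-type cortex) and Vim (1225 and 809 CPM). Pax6 (log2 fold change 0.46), Hes5 (0.58) and Neurog2 (0.25, with overlapping groups) rose as well, while Fabp7, Slc1a3 and Eomes fell. The part of these markers in the Efnb1 and Efnb2 values was not tested.

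Of 8 EphA receptors tested 4 fell, 1 rose and 3 did not pass. Epha3, a receptor known from callosal and other cortical axons (chr16:63543532-63864175), had 99, 91.2, 91.4 and 105 CPM in Taf8-deleted libraries, against 162, 166, 177 and 173 CPM in wild-type libraries (log2 fold change -0.81, SE 0.05, adjusted p = 8e-07 by edgeR). Epha6 was low throughout, with 1.79, 1.69, 2.28 and 2.28 CPM in Taf8-deleted libraries, against 2.59, 2.74, 3.63 and 2.89 CPM in wild-type libraries (log2 fold change -0.56, SE 0.16, adjusted p = 0.0101). Its call was lost without wild-type replicates 2 and 3 (-0.47, adjusted p = 0.0604), a fit added after the data were seen.

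Epha5 had 247, 208, 214 and 244 CPM in Taf8-deleted libraries, against 277, 271, 335 and 276 CPM in wild-type libraries (log2 fold change -0.34, SE 0.08, adjusted p = 0.00391 by edgeR). Epha7 had 50.2, 48.6, 47.1 and 53.9 CPM in Taf8-deleted libraries, against 59.7, 57.8, 71 and 58.1 CPM in wild-type libraries (log2 fold change -0.30, SE 0.07, adjusted p = 0.004). Both receptors act in the sorting of thalamic and cortical axons, and in both the wild-type group was drawn up by replicate 3. With the meningeal markers as a covariate neither passed, at -0.22 (adjusted p = 0.058) for Epha5 and -0.19 (adjusted p = 0.0574) for Epha7, and with the endothelial markers Epha5 was at -0.00 and Epha7 at 0.02. Epha4, the receptor that binds ephrins of both classes and the EphA with the most RNA per length, had 465, 410, 442 and 412 CPM in Taf8-deleted libraries, against 399, 416, 382 and 387 CPM in wild-type libraries. These groups overlap, the call as higher was marginal (log2 fold change 0.13, SE 0.05, adjusted p = 0.0472), and it was lost on leaving out any of 6 libraries, with 0.08 without Taf8-deleted replicate 1. Epha4 made up 52% ± 2.02 of the summed EphA RPKM in Taf8-deleted cortex and 40.8% ± 2.28 in wild-type cortex. Epha8 (log2 fold change -0.16), Epha10 (-0.38), which lacks kinase activity, and Epha2 (0.26) did not pass and overlapped. Epha1 was not tested, with 0.0943 to 0.395 CPM in Taf8-deleted and 0.0332 to 0.21 CPM in wild-type libraries, levels near the counting limit in a gene that overlaps the much more abundant Zyx.

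Of 5 EphB receptors 1 rose, 2 fell and 2 did not pass. Ephb2 had 256, 262, 254 and 243 CPM in Taf8-deleted libraries, against 185, 184, 165 and 174 CPM in wild-type libraries (log2 fold change 0.52, SE 0.05, adjusted p = 6.19e-06 by edgeR). The lowest Taf8-deleted value stands well above the highest wild-type one. Ephb2 made up 53.1% ± 1.32 of the summed EphB RPKM in Taf8-deleted cortex and 41.7% ± 0.7 in wild-type cortex. Ephb1 had 108, 118, 113 and 96.4 CPM in Taf8-deleted libraries, against 112, 113, 117 and 106 CPM in wild-type libraries, which overlap (log2 fold change -0.05). Ephb3, which acts with Ephb2 in mouse forebrain commissures, fell by 0.44 on the log2 scale (SE 0.08, adjusted p = 0.000592), with 18.4 to 21.8 CPM in Taf8-deleted and 23.5 to 28.6 CPM in wild-type libraries. Ephb6, a member without kinase activity, fell by 0.25 (SE 0.06). With the ganglionic eminence markers as a covariate neither passed, at -0.20 (adjusted p = 0.209) for Ephb3 and -0.16 (adjusted p = 0.24) for Ephb6. That score was 5.66 to 5.72 in Taf8-deleted and 5.78 to 6.03 in wild-type libraries (mean log2 CPM). It separates the groups, so the fit can hardly tell genotype from covariate. Ephb4, a receptor of veins, did not pass (log2 fold change -0.04).

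Of the netrins, Ntn1, the founding axon attractant, did not pass the threshold. It had 70 to 85.5 CPM in Taf8-deleted and 60.9 to 75.4 CPM in wild-type libraries (log2 fold change 0.13, SE 0.08, adjusted p = 0.164 by edgeR). It passed with the ganglionic eminence covariate (0.43, adjusted p = 0.0127) and had the other sign with the endothelial one (-0.14, adjusted p = 0.592). Both scores separate the groups, so these fits can hardly tell genotype from covariate. Ntn4, known from basement membranes, overlapped as well (-0.03). Ntn3 was called higher (0.22, adjusted p = 0.0447) at 14.8 to 15.9 CPM in Taf8-deleted and 11.7 to 14.7 CPM in wild-type libraries, but 6 of 8 fits without 1 library lost that call, and the gene overlaps Tbc1d24. Without wild-type replicates 2 and 3 its log2 fold change was 0.05.

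The netrin-Gs, membrane-anchored relatives that do not bind Dcc, both fell. Ntng1 had 5.25, 5.03, 4.97 and 5.92 CPM in Taf8-deleted libraries, against 6.47, 8.74, 6.3 and 6.93 CPM in wild-type libraries (log2 fold change -0.42, SE 0.12, adjusted p = 0.0112 by edgeR). Ntng2 had 40.6, 37.8, 39.3 and 41.8 CPM in Taf8-deleted libraries, against 49.2, 47, 49.4 and 49.1 CPM in wild-type libraries (log2 fold change -0.29, SE 0.04, adjusted p = 0.000228), and it overlaps 6530402F18Rik, which fell by 0.42 on the log2 scale. Neither gene's groups overlap. The high Ntng1 value belongs to wild-type replicate 2, which also had the highest summed level of 7 thalamic and diencephalic markers (122 CPM, beside 70.6 to 75.3 CPM in Taf8-deleted libraries and 66.4 to 76.9 CPM in the other wild-type libraries). Their part in the Ntng1 difference was not tested, and its call held without that library.

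Of the 5 netrin receptors among the 39 genes 3 fell and 2 did not pass. Unc5a, just under the 1.4-fold mark, had 32.3, 39.4, 36.2 and 36.9 CPM in Taf8-deleted libraries, against 49.5, 49.1, 53.8 and 49.8 CPM in wild-type libraries (log2 fold change -0.48, SE 0.06, adjusted p = 6.28e-05 by edgeR). Dcc, the attractive receptor, had 279, 251, 272 and 308 CPM in Taf8-deleted libraries, against 297, 345, 372 and 303 CPM in wild-type libraries. Its groups overlap, and its fall of 0.25 on the log2 scale (SE 0.08, adjusted p = 0.0238) was no longer called without Taf8-deleted replicate 2 or 3 or wild-type replicate 3 (-0.18, adjusted p = 0.0506). Neo1, a relative of Dcc that also binds repulsive guidance molecules, had 334, 323, 323 and 337 CPM in Taf8-deleted libraries, against 375, 354, 427 and 346 CPM in wild-type libraries, and fell by 0.19 (SE 0.06, adjusted p = 0.0214). Unc5c had 13.3, 13.1, 10.7 and 11.1 CPM in Taf8-deleted libraries, against 11.2, 19.7, 15.4 and 13.5 CPM in wild-type libraries, with the highest value in the library of high thalamic markers. It did not pass (log2 fold change -0.31, adjusted p = 0.101) but did without wild-type replicate 1 (-0.44, adjusted p = 0.0175). Unc5b, which is known from vessels as well, did not pass (-0.03). Unc5d, an Unc5 receptor outside the 39 genes, fell by 0.87 (SE 0.09), with 38.4 to 45.2 CPM in Taf8-deleted and 69.4 to 92.3 CPM in wild-type libraries.

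Ratios between related genes within a library do not depend on how the libraries were scaled, and 12 pairs were compared by an exact two-sided permutation test over 70 arrangements of the 8 libraries. In 7 pairs the groups did not overlap, each with an exact permutation p = 0.0286, the smallest possible, and an adjusted p = 0.049 over the 12 pairs. That adjusted p passes only because 7 pairs tie at the smallest value, and the pairs are not independent, since Slit2 and Efnb2 recur in them. Among single genes 53.6% of all tested had groups that did not overlap, and no such share was computed for ratios of other pairs. Epha3 relative to Epha4 was at log2 ratios of -1.56, -1.50, -1.60 and -1.30 in Taf8-deleted libraries, against -0.63, -0.66, -0.44 and -0.50 in wild-type libraries, a difference of -0.94. Slit2 relative to Slit3 was at 3.15, 3.53, 3.69 and 3.49 in Taf8-deleted libraries, against 2.42, 2.66, 2.01 and 2.08 in wild-type libraries, a difference of 1.18. In both pairs the balance moved toward the more abundant gene of the pair. The other 5 differences were -0.67 for Efna2 over Efna5, -0.57 for Ephb1 over Ephb2, -0.45 for Slit1 over Slit2, 0.37 for Efnb2 over Efnb3 and 0.32 for Efnb1 over Efnb2. In the remaining 5 pairs the ratios overlapped, with differences of 0.09 for Robo1 over Robo2, -0.04 for Epha5 over Epha7, -0.06 for Dcc over Neo1, -0.20 for Unc5a over Unc5c and -0.13 for Ntng1 over Ntng2 (exact permutation adjusted p = 0.514 to 0.629). A p that misses the threshold does not show that such ratios were equal.

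**Figure D4:**
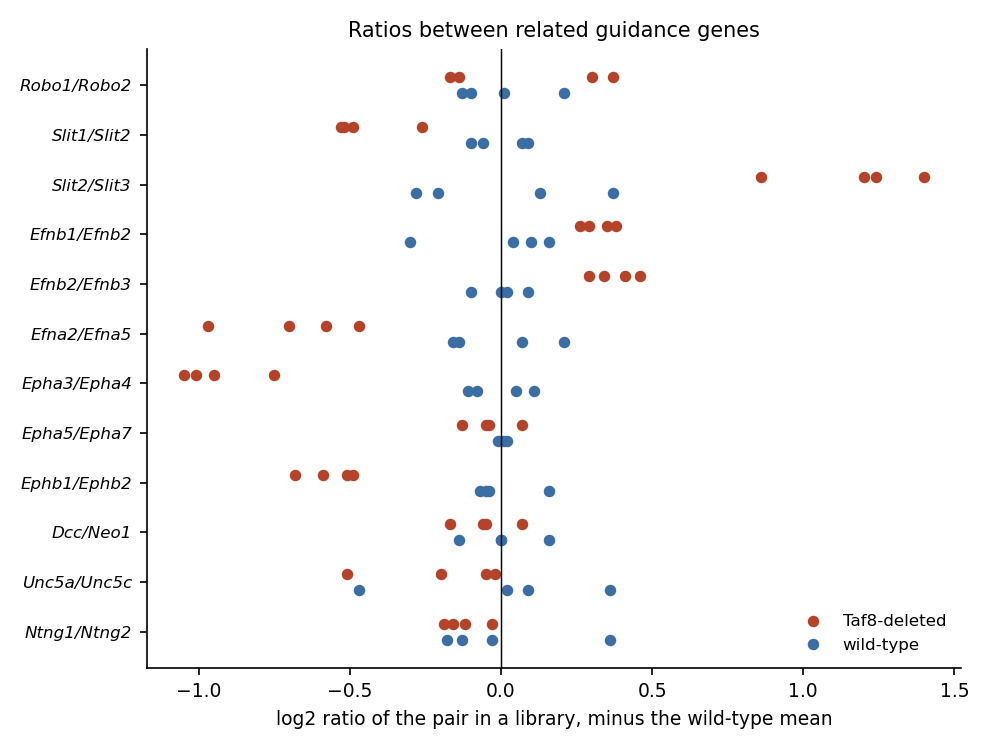
Log2 ratio of counts per length between 12 pairs of related guidance genes in each library, minus the wild-type mean of the pair. The Taf8-deleted points of Slit2 over Slit3 lie at least 0.86 to the right, those of Epha3 over Epha4 between -1.05 and -0.75, and the points of Robo1 over Robo2, Epha5 over Epha7 and Dcc over Neo1 are intermingled.

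Long genes were lower more often in Taf8-deleted cortex, and many guidance genes are long. Of 532 tested genes that span 300 kb or more 46.2% were lower and 12.6% higher (median log2 fold change -0.21), while of 4118 genes under 10 kb 25.2% were lower and 35.1% higher (0.07). Among the 11 tested guidance genes of 300 kb or more, 7 fell (Epha3, Epha5, Epha6, Robo1, Robo2, Ntng1 and Dcc), 3 did not pass (Ephb1, Slit3 and Unc5c) and Slit2, which spans 326 kb, rose. Their median was -0.39. The 5 guidance genes under 10 kb also had 3 lower ones, Efna3, Efna4 and Efnb3, and a median of -0.18. The longest genes together had 24098 to 26672 CPM in Taf8-deleted and 28897 to 32862 CPM in wild-type libraries, highest in wild-type replicate 3, and the part of span in each gene's value was not tested.

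**Figure D5:**
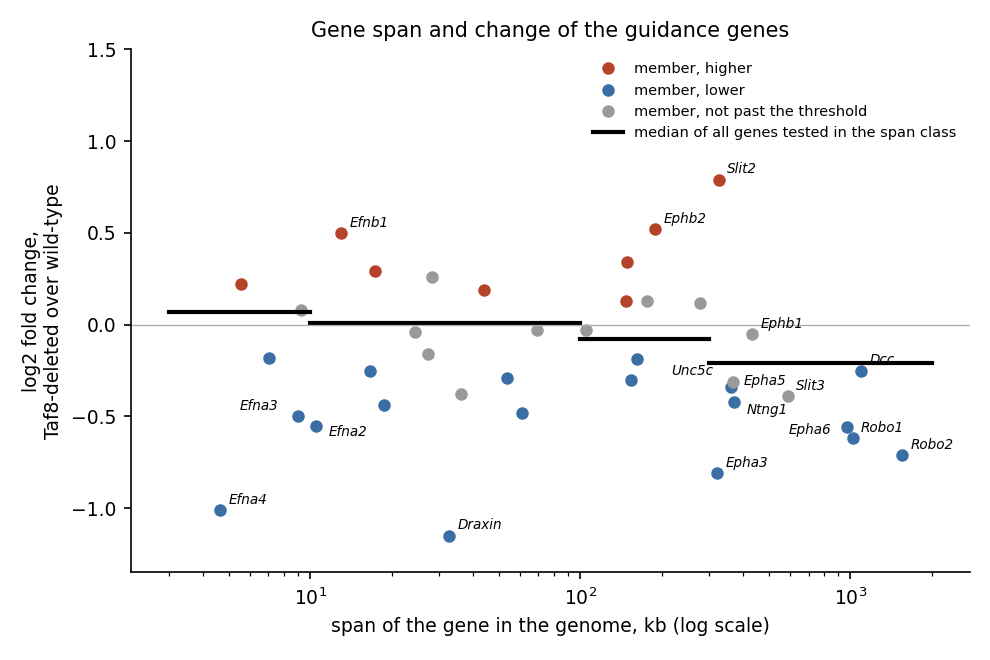
Log2 fold change (Taf8-deleted over wild-type) of the 38 tested guidance genes against the genomic span of the gene in kb on a log scale, with the median of all tested genes in 4 span classes as black lines. Slit2 stands alone above 0 among the 11 genes of 300 kb or more, while Draxin and Efna4, the largest falls, span 32.7 and 4.64 kb.

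Chromosome 16 carries 5 tested guidance genes, Epha3, Epha6, Ephb3, Robo1 and Robo2, and all 5 fell. Of all 471 tested genes of that chromosome 24.6% were lower and 33.3% higher (median log2 fold change 0.05). Epha3, Epha6, Robo1 and Robo2 span 321, 969, 1020 and 1555 kb, and of all tested genes of 300 kb or more 46.2% were lower. On chromosomes 3 and 4, 3 of 5 and 2 of 6 tested guidance genes fell, and 1 on chromosome 4 rose. The chromosome 16 grouping was chosen after the values were seen, and the part of span in it was not tested.

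Further genes of the 3 pathways (ligands, receptors, adaptors, enzymes and scaffolds) were also lower more often than higher. Of 53 such genes 52 were tested, and 30 were lower, 4 higher and 18 did not pass, which is 57.7% and 7.69% beside the 29.6% and 29.5% of all genes. The median log2 fold change was -0.17. Of the 5 lower genes with the smallest adjusted p, Srgap2, a GTPase-activating protein that binds Robo, had 109 ± 1.69 CPM in Taf8-deleted cortex and 196 ± 6.69 CPM in wild-type cortex (log2 fold change -0.85, SE 0.04, adjusted p = 7.79e-08 by edgeR). Trim67, a ubiquitin ligase that interacts with Dcc, had 96.9 ± 6.26 CPM in Taf8-deleted cortex and 199 ± 18.5 CPM in wild-type cortex (-1.04, SE 0.07). Dscaml1 (-0.75) and Dscam (-0.65), cell adhesion molecules of which Dscam is also a netrin receptor, and Grip1 (-0.58), a scaffold that binds ephrin-B, fell as well. The higher genes included Sdcbp (log2 fold change 0.32), a scaffold that binds ephrin-B, and the exchange factor gene Kalrn (0.28). Pitpna (0.13), which encodes a lipid transfer protein that works with Dcc, was higher as well. The groups of Kalrn overlap, and its call was lost in 5 of 8 fits without 1 library (0.17 without Taf8-deleted replicate 1, adjusted p = 0.131 by edgeR). The call of Pitpna was lost without Taf8-deleted replicate 2, 3 or 4, or without wild-type replicate 1, 2 or 4 (adjusted p = 0.0647 to 0.0846 by edgeR). Leaving out 1 library gave 1 or 2 higher genes for 7 of the 8 libraries, and 5 without wild-type replicate 3.

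Markers of other cells moved with the genotype too. Of 16 markers of endothelial cells and pericytes 15 were higher and none lower, with a sum of 317 to 401 CPM in Taf8-deleted and 261 to 279 CPM in wild-type libraries. The 6 arterial markers summed to 72.7 to 75.5 CPM in Taf8-deleted and 66.1 to 79.9 CPM in wild-type libraries. Most of that sum was Hey1 (mean 52.3 CPM in Taf8-deleted and 56 CPM in wild-type cortex), which did not pass (log2 fold change -0.10). Of the others Sox17 was called higher (0.39), Gja4 (0.34), Dll4 (0.21) and Gja5 (0.16) did not pass, and Bmx was not tested. Ganglionic eminence and interneuron markers were lower in 9 of 13 and higher in 3, with 893 to 925 CPM in Taf8-deleted and 1063 to 1241 CPM in wild-type libraries. Of 8 microglial markers 5 were higher and 1 lower, with red blood cell markers higher in 4 of 5, and Cajal-Retzius markers higher in 4 of 8 and lower in 1, all with overlapping sums. Choroid plexus markers set single libraries apart, with sums of 1225, 84.2, 202 and 14.9 CPM in Taf8-deleted libraries and 16.1, 17.1, 22.7 and 413 CPM in wild-type libraries. Of 11 meningeal markers tested 6 were higher and none lower (median log2 fold change 1.27). Their sums were 64.7, 115, 135 and 19.7 CPM in Taf8-deleted libraries and 25.6, 25.4, 16.2 and 37 CPM in wild-type libraries, which overlap through Taf8-deleted replicate 4. Draxin, Efna2, Efna4, Epha3, Ephb2 and Robo1 passed the threshold in the same direction under each of the 22 alternatives. These include covariates for the endothelial and pericyte, ganglionic eminence and meningeal markers only. No covariate was run for the cortical identity or the radial glia and intermediate progenitor markers, whose sums also separate the groups. With the endothelial covariate Robo2 (-0.31, adjusted p = 0.197 by edgeR), Slit2 (0.50, adjusted p = 0.052), Efnb1 (0.34, adjusted p = 0.198), Efna3 (-0.49, adjusted p = 0.0523) and Epha6 (-0.37, adjusted p = 0.531) did not pass. That score separates the groups completely, at 4.07 to 4.43 in Taf8-deleted and 3.77 to 3.90 in wild-type libraries (mean log2 CPM), so the fit can hardly tell genotype from covariate.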

How the data were processed

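RNA was isolated with a column kit and made into stranded poly(A) libraries, per the labels' protocols. The authors deposited raw read counts per Entrez gene, made with Subread 1.5.0 and featureCounts on mm10, per the submitters' processing notes, together with a gene length in bases. The annotation, the strand setting and the treatment of multi-mapping reads have no statement in the sources used here. The table of 27179 genes differed from the single-sample tables in 0 values. RefSeq symbols were matched for 25275 genes.

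Groups came from the labels. The quasi-likelihood F-test of edgeR 4.0.16 (R 4.3.3) was run on the whole table with group alone, after TMM scaling and filterByExpr. P-values were adjusted by Benjamini-Hochberg over the 15649 genes kept, and 0.05 was the threshold. Standard errors are |log2 fold change| over the root of F. CPM uses TMM-scaled library sizes, and RPKM divides CPM by the deposited length. Ratios of pairs had 0.5 added to each count. The method was tested on simulated counts. Values in every library were given for called genes of at least 1.4-fold and 1 CPM and for genes of the pairs, and the other pathway genes named are the up to 5 per direction with the smallest adjusted p. Some genes that this rule takes are named nowhere, as they are not reported here. Alternatives were 3 other scalings, 2 filters, DESeq2 1.42.0, limma 3.58.1 voom, a replicate block, 3 marker covariates, each library left out, a 1.2-fold test and a threshold of 0.01. Leaving out wild-type replicates 2 and 3 together was added after seeing the data. The guidance genes and gene lists were chosen with earlier results of these data known.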

Additional observations from a re-analysis of the deposited data

Results flagged for a closer look

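Of 98 groups of 4 libraries checked, 7 held a library far from the other 3 (Dixon's test at the 95% level, which chance passes in about 1 of 20 groups). Taf8-deleted replicate 4 was the lowest of its group for Slit2, at 96.2 CPM beside 117 to 121 CPM, and Taf8-deleted replicate 3 the highest for Draxin, at 133 CPM beside 124 to 125 CPM. Wild-type replicate 3, the most deeply sequenced library, was the highest of its group for Epha5 (335 CPM beside 271 to 277 CPM), Epha7 (71 CPM beside 57.8 to 59.7 CPM) and Unc5a (53.8 CPM beside 49.1 to 49.8 CPM), and the lowest for Ephb4 (29.8 CPM beside 36.9 to 37.9 CPM). Wild-type replicate 2 was the lowest for Ntng2, at 47 CPM beside 49.1 to 49.4 CPM. The fall of Epha5, Epha7, Unc5a, Ntng2 and Draxin and the rise of Slit2 were each called without the library in question.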

How the results depend on the processing

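Of the 26 called guidance genes, 21 kept their direction and call in every alternative outside the marker covariates and the 2 stricter tests, and the other 5 were Dcc, Epha4, Epha6, Ntn3 and Robo3. Calls of guidance genes (26 in all, 18 lower, 8 higher) came to 17 in all with 11 lower under the meningeal covariate, to 8 with 7 lower and 1 higher under the endothelial covariate, to 13 with 9 lower and 4 higher against a 1.2-fold change, and to 5 higher at a threshold of 0.01 or without wild-type replicates 2 and 3. Calls over all 15649 genes, 4624 higher and 4633 lower in the main fit, dropped under these settings as well. They came to 3805 higher and 3843 lower under the meningeal covariate and to 1421 higher and 1664 lower under the endothelial covariate. Against a 1.2-fold change 2307 of all genes were higher and 2328 lower. For the guidance genes, leaving out 1 library gave 22 to 27 calls, 17 to 20 lower and 5 to 7 higher, with 5 higher without Taf8-deleted replicate 1 or 3 or wild-type replicate 3. The same replicate number does not pair libraries (correlations of deviations -0.464 to 0.014, and 0 of 4 libraries correlated best with their own number). With the replicate block 17 guidance genes were lower and 6 higher, and of the other pathway genes 2 were higher. Those other genes (34 calls, 30 lower, 4 higher) had 10 calls, 9 lower and 1 higher under the endothelial covariate, 13 calls, all lower and 0 higher, against a 1.2-fold change, 22 calls with 1 higher at 0.01, and 1 to 5 higher without 1 library. The sign turned under the endothelial covariate for Epha2 (-0.25), Epha7 (0.02), Dcc (0.02), Neo1 (0.01) and Ntn1 (-0.14), and under the ganglionic eminence covariate for Epha8 (0.01), Ephb4 (0.29), Ntn4 (0.52) and Unc5b (0.03). It also turned for Ntn4 with upper-quartile scaling (0.00), no scaling (0.01), voom (0.02) and without wild-type replicate 1 (0.06), and for Unc5b with upper-quartile scaling (0.00) and no scaling (0.02). The endothelial and ganglionic eminence scores each separate the groups, and otherwise the cause was not tested. The TATAAA motif was in 1 guidance gene near the start and in 2 anywhere in the window. Other scalings moved the median of all genes by no more than 0.05. Depth limits Epha1 and, at a few CPM, Epha2, Epha6 and Epha10.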
